A study of Mus musculus with 16 samples.

Results

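Chromosome 8 RNA-DNA contacts were taken from the significant interaction tables of Input and H3K27me3-RADIP as every line whose RNA tag and DNA tag both lay on chromosome 8. They numbered 259435 of the 2720242 pairs in the 2 tables, of which 117342 were Input pairs and 142093 H3K27me3-RADIP pairs. The stretches and RNAs described were chosen by their pair counts and by their shares in the 2 tables, the same values that are given for them. Tags were placed by their centres, in 25-kb bins for single contacts and in 1-Mb windows of the DNA tag for the profile along the chromosome.

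RADIP joins RADICL-seq, in which RNA is ligated through an adapter to the DNA beside it in crosslinked nuclei, with an immunoprecipitation of the ligated chromatin. Both conditions came from mouse embryonic stem cells (mESCs) of the line PGK12.1, grown in serum with leukemia inhibitory factor, fixed with 1% formaldehyde and digested with DNase I. H3K27me3-RADIP chromatin was then selected with an antibody against H3K27me3, whereas Input was the part of the same preparation set aside without selection. Each condition had 8 libraries by their labels, which by the study's methods came from fewer biological replicates, merged by the authors into 1 table before deposit, so each value below is 1 number per condition. Errors are therefore 95% counting intervals that leave out the spread between cultures, no p-value is given, and no difference below was tested.

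H3K27me3 is the trimethyl mark that Polycomb repressive complex 2 places on histone H3, and in embryonic stem cells it lies over the start sites of many silent developmental regulators. RNA captured next to chromatin includes much intronic sequence near its own gene, and some long transcripts reach DNA far along the same chromosome. Chromosome 8 carries the Fox cluster with Foxf1, Foxc2 and Foxl1, the Irx3, Irx5 and Irx6 cluster, and the regulators Hand2, Sox1 and Klf1.

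Promoter sequences are shown for gene starts with high and low ratios described further down, with each CG dinucleotide in capitals, because CG content is the sequence feature best known to go with H3K27me3 at promoters. Each run covers 250 bases before to 50 bases after the RefSeq start (GRCm38.p6, the same assembly as mm10), written 5′ to 3′ on the strand of the gene. A CG was present in 94.6% of the 32851 promoters of this table, whose median number of CG was 7. The first 4 had the highest H3K27me3-RADIP to Input ratio around the start among genes of a developmental list whose promoter lay within 1000 bp of the annotated start. Hand2 lies at chr8:57320733-57321032 (plus strand), Klf1 at chr8:84901732-84902031 (plus), Sox1 at chr8:12395269-12395568 (plus) and Irx3 at chr8:91801605-91801904 (minus).
Hand2: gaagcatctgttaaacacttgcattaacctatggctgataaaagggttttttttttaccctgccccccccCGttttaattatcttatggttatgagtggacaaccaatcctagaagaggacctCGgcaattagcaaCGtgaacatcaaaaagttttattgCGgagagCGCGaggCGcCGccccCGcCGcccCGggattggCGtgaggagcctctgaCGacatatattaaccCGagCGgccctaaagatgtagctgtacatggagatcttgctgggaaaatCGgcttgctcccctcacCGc
Klf1: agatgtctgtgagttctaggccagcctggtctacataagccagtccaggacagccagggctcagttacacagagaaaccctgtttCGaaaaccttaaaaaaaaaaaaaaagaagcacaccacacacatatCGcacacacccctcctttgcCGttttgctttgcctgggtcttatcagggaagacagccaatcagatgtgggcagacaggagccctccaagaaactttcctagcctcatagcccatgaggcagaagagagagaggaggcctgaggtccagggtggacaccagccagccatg
Sox1: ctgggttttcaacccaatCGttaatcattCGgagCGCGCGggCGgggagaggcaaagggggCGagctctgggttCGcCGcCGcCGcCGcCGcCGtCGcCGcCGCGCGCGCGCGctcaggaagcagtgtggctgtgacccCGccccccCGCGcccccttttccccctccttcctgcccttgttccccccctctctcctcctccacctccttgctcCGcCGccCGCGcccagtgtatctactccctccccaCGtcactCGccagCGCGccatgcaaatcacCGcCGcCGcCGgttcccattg
Irx3: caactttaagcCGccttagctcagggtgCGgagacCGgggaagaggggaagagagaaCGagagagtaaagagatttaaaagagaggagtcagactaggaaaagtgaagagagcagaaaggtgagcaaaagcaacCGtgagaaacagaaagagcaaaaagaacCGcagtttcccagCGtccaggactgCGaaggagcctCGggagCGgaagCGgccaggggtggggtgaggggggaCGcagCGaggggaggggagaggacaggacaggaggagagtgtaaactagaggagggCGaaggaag

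Fendrr, a lncRNA transcribed away from Foxf1, is shown because its start falls in the 25-kb bin that received the largest number of different RNAs in H3K27me3-RADIP. Its promoter is at chr8:121083061-121083360 (minus strand), and its start lies 1276 bases from that of Foxf1.
Fendrr: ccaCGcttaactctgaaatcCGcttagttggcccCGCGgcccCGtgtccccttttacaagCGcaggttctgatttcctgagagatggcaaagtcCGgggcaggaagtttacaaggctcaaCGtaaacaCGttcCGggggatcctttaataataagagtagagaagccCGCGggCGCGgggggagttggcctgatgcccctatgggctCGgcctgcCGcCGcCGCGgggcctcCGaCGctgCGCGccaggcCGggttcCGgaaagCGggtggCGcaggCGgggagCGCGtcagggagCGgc

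The last 4 were taken among genes of 3 lists together with such a promoter within the same 1000 bp and at least 50 pairs. They had the lowest ratios there. Palld, with 35 Input and 8 H3K27me3-RADIP pairs (log2 -2.41) and 2 CG, fell below that number of pairs. Starts without such a promoter are not shown either. Among them Kat6a and Tenm3 had lower ratios than Smarca5, and Foxc2 and Foxf1 had higher ones than Klf1, Sox1 and Irx3. The last 4 are Vegfc at chr8:54077282-54077581 (plus), Orc6 at chr8:85299382-85299681 (plus), Itgb1 at chr8:128685404-128685703 (plus) and Smarca5 at chr8:80739410-80739709 (minus).
Vegfc: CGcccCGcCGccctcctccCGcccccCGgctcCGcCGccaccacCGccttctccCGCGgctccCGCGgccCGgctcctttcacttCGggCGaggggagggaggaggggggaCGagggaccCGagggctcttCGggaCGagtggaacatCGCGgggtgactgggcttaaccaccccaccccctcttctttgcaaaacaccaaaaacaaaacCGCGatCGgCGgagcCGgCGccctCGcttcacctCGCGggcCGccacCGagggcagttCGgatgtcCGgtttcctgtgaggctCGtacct
Orc6: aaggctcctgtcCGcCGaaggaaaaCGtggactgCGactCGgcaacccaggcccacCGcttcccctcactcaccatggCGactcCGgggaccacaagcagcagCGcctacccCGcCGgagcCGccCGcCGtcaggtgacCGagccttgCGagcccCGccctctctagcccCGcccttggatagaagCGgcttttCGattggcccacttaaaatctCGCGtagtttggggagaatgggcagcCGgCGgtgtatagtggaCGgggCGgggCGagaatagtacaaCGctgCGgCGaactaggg
Itgb1: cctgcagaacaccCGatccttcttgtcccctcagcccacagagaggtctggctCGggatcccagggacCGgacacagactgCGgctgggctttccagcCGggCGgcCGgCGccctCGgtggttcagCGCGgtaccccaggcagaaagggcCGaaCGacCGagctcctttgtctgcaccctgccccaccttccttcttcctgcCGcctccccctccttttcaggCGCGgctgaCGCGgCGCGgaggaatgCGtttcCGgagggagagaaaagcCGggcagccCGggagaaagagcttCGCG
Smarca5: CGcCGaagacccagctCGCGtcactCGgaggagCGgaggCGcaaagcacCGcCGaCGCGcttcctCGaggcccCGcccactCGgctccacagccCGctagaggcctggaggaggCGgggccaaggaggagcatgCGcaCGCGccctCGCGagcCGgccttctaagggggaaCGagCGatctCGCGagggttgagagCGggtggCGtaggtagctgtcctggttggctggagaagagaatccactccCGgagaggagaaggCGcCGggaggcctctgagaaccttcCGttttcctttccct

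By count, the 4 high ones shown held 17 CG (Hand2), 3 (Klf1), 37 (Sox1) and 14 (Irx3), against 35 (Vegfc), 30 (Orc6), 27 (Itgb1) and 32 (Smarca5) at the 4 low ones shown. Of the high ones shown, Hand2, Klf1 and Irx3 thus held fewer CG than every low one shown, and Sox1 held more. Klf1 had fewer than the median promoter. Fendrr held 31. Of the 85 genes on the lists, 57 had an entry in the promoter table, so no comparison of the lists by CG number was made.

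Chromosome 8 held more cis pairs than any of the other chromosomes in both tables. It carried 9.02% (8.97 to 9.07) of all cis pairs in Input and 10.1% (10.03 to 10.13) of those in H3K27me3-RADIP, a ratio of 1.12 that was second to that of chromosome 7 (1.16) among 20 chromosomes. RNA tags came almost entirely from protein-coding genes (98.7% in both tables) and mostly from introns (90.1% in Input and 90.7% in H3K27me3-RADIP). The pairs made up 5028 combinations of an RNA and a 25-kb DNA bin in Input and 6230 in H3K27me3-RADIP. Of these, 4093 were in both tables, 81.4% of the Input combinations and 65.7% of those in H3K27me3-RADIP. No combination had fewer than 7 pairs, so an RNA or bin given as 0 below was not listed, which is not the same as no contact. Across the genome, RNAs of 9 (Input) and 11 (H3K27me3-RADIP) of 18 stem cell markers were listed. Esrrb, Tet1 and Tfcp2l1 were among them, whereas Pou5f1 and Nanog were not. Of other markers, 2 and 3 of 6 fibroblast genes (18 and 29 pairs) and 2 and 2 of 4 endoderm genes (38 and 56) were listed. The neural markers listed were 1 and 2 of 5 (11 and 33 pairs).

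Pairs lay further apart in H3K27me3-RADIP. The median distance between RNA tag and DNA tag was 65.5 kb for Input pairs against 105 kb for H3K27me3-RADIP pairs. Pairs over 100 kb apart, called long-range, made up 43.7% (43.4 to 43.9) of chromosome 8 cis pairs in Input and 50.8% (50.5 to 51.1) in H3K27me3-RADIP, a difference of 7.14 percentage points (6.76 to 7.53). Pairs over 1 Mb apart made up 10.3% (10.1 to 10.5) and 15.1% (14.9 to 15.3), a difference of 4.82 percentage points. The shift was larger beyond 5 Mb. Between 1 and 5 Mb the share in H3K27me3-RADIP was 1.29 times that in Input (10497 and 16381 pairs), between 5 and 10 Mb 2.97 times (744 and 2678 pairs), and over 10 Mb 2.39 times (833 and 2406 pairs). Only chromosome 7 had a larger share over 1 Mb, 11.7% in Input and 18.3% in H3K27me3-RADIP. Both shares were higher in H3K27me3-RADIP on every chromosome, so the direction was not particular to chromosome 8. The gain over 100 kb ran from 4.89 percentage points (chromosome 10) to 9.90 (chromosome 7). That over 1 Mb ran from 0.411 (chromosome 17) to 6.59 (chromosome 7). On chromosome 8 the gain over 1 Mb was 5.07 percentage points without Galnt2l, the RNA with the most pairs. Without the 5 RNAs with the most pairs it was 2.16, among combinations of RNA and bin shared by the tables it was 0.916, and with equal weight for each of 490 RNAs 0.250.

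Along the chromosome the pairs gathered toward its distal end. Of 130 windows, 112 held a pair in at least 1 table, and of the 18 without pairs 3 consist of undetermined sequence alone. With the chromosome cut into 5 equal parts, the last, from 104 Mb to the end, held 45.5% of Input pairs and 48.6% of H3K27me3-RADIP pairs, and 62.6% and 60.9% of those over 1 Mb apart. The parts from 26 to 52 Mb and from 52 to 78 Mb held the fewest, with 11737 and 11216 Input pairs against 12499 and 11452 in H3K27me3-RADIP. The window with the most pairs was that from 122 to 123 Mb, with 5777 (Input) and 7609 (H3K27me3-RADIP), carried by the RNA named Galnt2l (2782 and 3765) and by Ankrd11 (2183 and 2511). In Input the next were those from 123, 18, 117 and 121 Mb (3598, 3582, 3539 and 3528 pairs), and in H3K27me3-RADIP those from 121, 117 and 120 Mb (5543, 4773 and 4633). Near 18 Mb nearly all pairs came from 1 RNA, Mcph1, a gene of chromosome condensation and DNA repair, with 3489 Input and 3487 H3K27me3-RADIP pairs. Long-range pairs had the same leading window, that from 122 Mb, with 2562 in Input and 3956 in H3K27me3-RADIP.

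**Figure D1:**
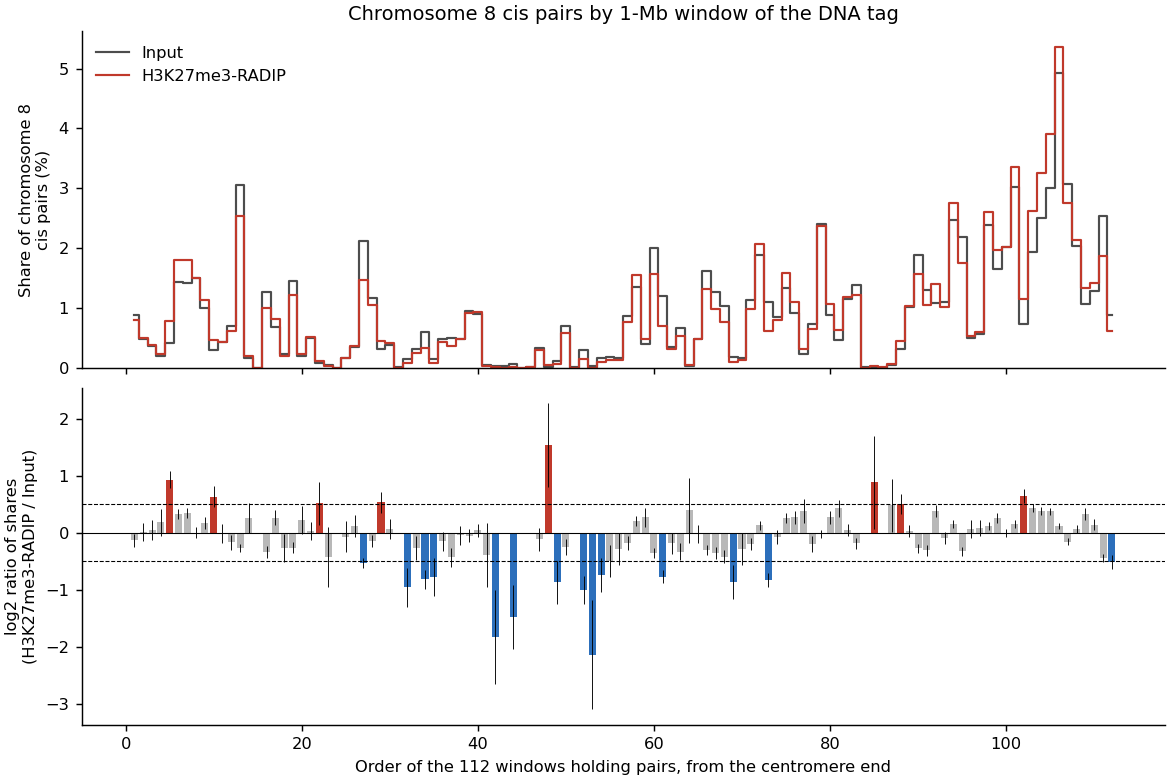
The 112 windows of 1 Mb that hold pairs, in order from the centromere end (x axis): above, share of the chromosome's cis pairs (%) in Input and H3K27me3-RADIP by the DNA tag. Below, log2 ratio of the shares for the 103 windows with at least 50 pairs, with 95% counting intervals, windows past the fold limit of 0.5 in colour and the limit as broken lines. Shares are highest toward the distal end in both tables, and most bars in the middle of the chromosome lie below 0.

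A window was called where its share of chromosome 8 pairs differed by at least 0.5 on the log2 scale (1.41-fold), with at least 50 pairs in the 2 tables together. Of 103 such windows, 8 were higher in H3K27me3-RADIP (7.77%) and 14 lower (13.6%), beside 10.4% and 18.4% over the windows of all chromosomes. With shares of all pairs of the table in place of chromosome 8 cis pairs, 17 were higher and 12 lower, so which direction prevailed depended on this scaling. By shares of long-range pairs alone, 16 of 93 windows were higher (17.2%) and 14 lower (15.1%), beside 22.4% and 17.5% over all chromosomes. The call uses the contrast by which these stretches were picked, so the counts are a description. For pairs of all distances, the windows from 104 Mb (log2 0.51) and 128 Mb (log2 -0.51) were just inside the limit. Just outside were those from 103 Mb (0.48) and 67 Mb (-0.50). The higher windows were scattered, whereas the lower ones lay mainly in the middle of the chromosome.

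Of the higher windows, that from 10 to 11 Mb held 484 Input and 1122 H3K27me3-RADIP pairs (log2 0.94, 0.78 to 1.09). Its pairs came from Irs2 (264 and 443), an adaptor of the insulin receptor, from Myo16 (170 and 357), an unconventional myosin of neurons, and from Mcph1, whose gene lies megabases away (28 and 252). The window from 118 to 119 Mb had 868 and 1643 pairs (log2 0.64, 0.53 to 0.76). These came from Cdh13, a cadherin held by a lipid anchor (482 and 762), and from Wwox (211 and 516) and Cmip (175 and 325), both transcribed outside it. From 15 to 16 Mb, 359 and 674 pairs (log2 0.63) were mostly Mcph1 RNA as well (217 and 447). The window from 35 Mb held 369 and 650 pairs (log2 0.54), led by Tnks, which encodes the poly(ADP-ribose) polymerase tankyrase (281 and 418), with Rbpms second in H3K27me3-RADIP and behind Eri1 and Mfhas1 in Input (19 and 105). That from 104 Mb held 379 and 653, led by Wwox (180 and 282). The other 3 were sparse: Galntl6 RNA alone from 58 Mb (19 and 67), mainly Unc5d, a netrin receptor gene, from 28 Mb (90 and 156 pairs), and the window from 99 Mb (17 and 38), where Cdh8 RNA had 17 in each and Gm15680 (11) and Wwox (10) were listed in H3K27me3-RADIP alone. Among combinations of RNA and bin in both tables no window was called higher and 7 were called lower, and the windows from 28 and 35 Mb turned sign (log2 -0.018 and -0.028).

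Of the windows called lower in H3K27me3-RADIP, the one with the most pairs was that from 33 to 34 Mb, with 2485 Input and 2079 H3K27me3-RADIP pairs (log2 -0.53, -0.62 to -0.45). It holds Rbpms, an RNA-binding protein gene, whose own RNA gave 1991 and 1730 of them. From 85 to 86 Mb, 1301 and 885 pairs (log2 -0.83) came from a row of genes, among them Phkb (366 and 247), Itfg1 (181 and 95), the retromer subunit Vps35 (120 and 63) and the chaperone Dnaja2 (88 and 33). The 3 neighbouring called windows from 64 to 67 Mb held 605 and 377 (log2 -0.96, -1.14 to -0.77), with Klhl2 (276 and 171), Naf1 (86 and 46) and Tll1 (25 and 0). Vegfc, the growth factor of lymphatic vessels, gave 76 and 21 of the 83 and 36 pairs from 54 Mb. At the distal end the window from 128 Mb held 1047 and 891 (log2 -0.51), where Pard3 RNA, of a cell polarity gene, had 669 and 680 and the integrin gene Itgb1 303 and 177. The pluripotency marker Zfp42 led the window from 43 Mb, with 130 and 98 pairs. Those from 39 Mb (175 and 109 pairs, all of Tusc3), 41 Mb (703 and 483, led by the centriolar satellite gene Pcm1), 60 Mb (140 and 93, led by the chloride transporter gene Clcn3) and 81 Mb (225 and 149, led by Gab1) were lower too, with log2 ratios between -0.96 and -0.82. The window from 50 Mb was sparse (47 and 16 pairs, log2 -1.83) and turned sign among combinations in both tables (log2 0.22). In these windows the leading RNAs were mostly those of genes lying there.

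Runs were read over the windows with at least 50 pairs in order, passing over the windows between them that had fewer. Those of at least 4 such windows on 1 side of 0 numbered 9, 4 above and 5 below. The run above 0 with the most pairs was that from 117 to 123 Mb, whose 6 windows held 18919 Input pairs and 27930 H3K27me3-RADIP pairs (log2 0.29, 0.26 to 0.31). It covers the Fox cluster, Irf8 and most of the Galnt2l model. Toward the centromere all 9 such windows from 4 to 16 Mb, with Sox1, Irs2 and the Col4a genes, were above 0 (8379 and 12254 pairs, log2 0.27). The runs below 0 all lay between 39 and 84 Mb. Among them were 39 to 48 Mb (log2 -0.29), 49 to 58 Mb (-0.46), 60 to 70 Mb (-0.39) and 77 to 84 Mb (-0.30), with Vegfc, Klhl2 and Smarca5 among their genes. Over the whole part from 52 to 78 Mb the log2 ratio was -0.25.

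Base composition moved with this profile. Across the 103 windows, Pearson's r between log2 ratio and GC content was 0.40 and Spearman's rho 0.46, over windows that share libraries and RNAs. In the 35 windows lowest in GC the median log2 ratio was -0.33 and 12 were called lower, whereas 2 of the 34 in the middle and none of the 34 highest in GC were. Windows called higher numbered 3, 3 and 2 in the same order. The number of coding gene starts hardly went with the ratio (rho -0.040). GC content also went with the number of pairs itself, with rho 0.77 in Input and 0.85 in H3K27me3-RADIP. Its part in the difference between the tables was not tested.

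Of chromosome 8 cis pairs, the 10 leading RNAs gave 42.2% (Input) and 45.7% (H3K27me3-RADIP). Of 782 RNA names, 575 were in both tables, 84 in Input alone and 123 in H3K27me3-RADIP alone. The RNA with the most pairs was Galnt2l, the name in the tables for a gene model of 4435 kb at chr8:119910841-124345722 (plus strand) that runs across many other genes. The tables held 11135 and 15156 pairs of it (log2 0.17). Other genes of the same strand contained 57.7% of its RNA tags in Input and 58.9% in H3K27me3-RADIP, led by Gse1 (2045 and 3116) and Banp (1213 and 1643), so transcripts of Galnt2l and of these genes cannot be told apart. Wwox, an oxidoreductase gene spanning a common fragile site, had 9179 and 14350 pairs (log2 0.37, 0.33 to 0.40). Mcph1 had 5592 and 7222 (log2 0.09), and Fto, which encodes an RNA demethylase, 4539 and 6028 (log2 0.13). Wwox thus moved most of these 4, and none of them passed the fold limit. Pard3 (4459 and 4624, log2 -0.22) had a smaller share in H3K27me3-RADIP.

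Of 351 RNAs with at least 50 pairs, 41 (11.7%) were higher in H3K27me3-RADIP and 75 (21.4%) lower, beside 14.9% and 22.5% over the RNAs of all chromosomes, and the median was -0.068. With shares of all pairs of the table, 59 were higher and 60 lower. Those called were sparse, with a median of 94 pairs in the 2 tables among the higher and 105 among the lower. Just inside the limit were Zcchc14 (170 and 292 pairs, log2 0.50) and Ddx39 (73 and 62, log2 -0.51), and just outside Galns (47 and 80, log2 0.49) and Eri1 (35 and 30, log2 -0.50). The highest ratio was that of Vat1l, with 13 and 81 pairs (log2 2.36, 1.52 to 3.21). Atp2c2, a calcium pump of the secretory pathway, had 16 and 59, Pkd1l2 18 and 52, and Evi5l 27 and 75. At the other end were Pdpr (46 and 9), the ESCRT genes Vps37a (44 and 9) and Vps36 (45 and 13), the anaphase-promoting complex subunit Anapc10 (83 and 21), and Smarca5, an ISWI remodelling ATPase (109 and 41). RNAs in 1 table alone were fewer still in pairs, at most 25 in Input alone (Tll1) and 28 in H3K27me3-RADIP alone (Slc7a2). Of 21 lncRNAs with at least 50 pairs 8 were higher and 4 lower. Among the higher were Gm26815 (44 and 103, log2 0.95), Gm27169 (19 and 54) and Gm15351 (24 and 52). Among the lower was 2500002B13Rik (52 and 18, log2 -1.81). Fendrr had a log2 ratio of 1.62 (0.66 to 2.58).

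**Figure D2:**
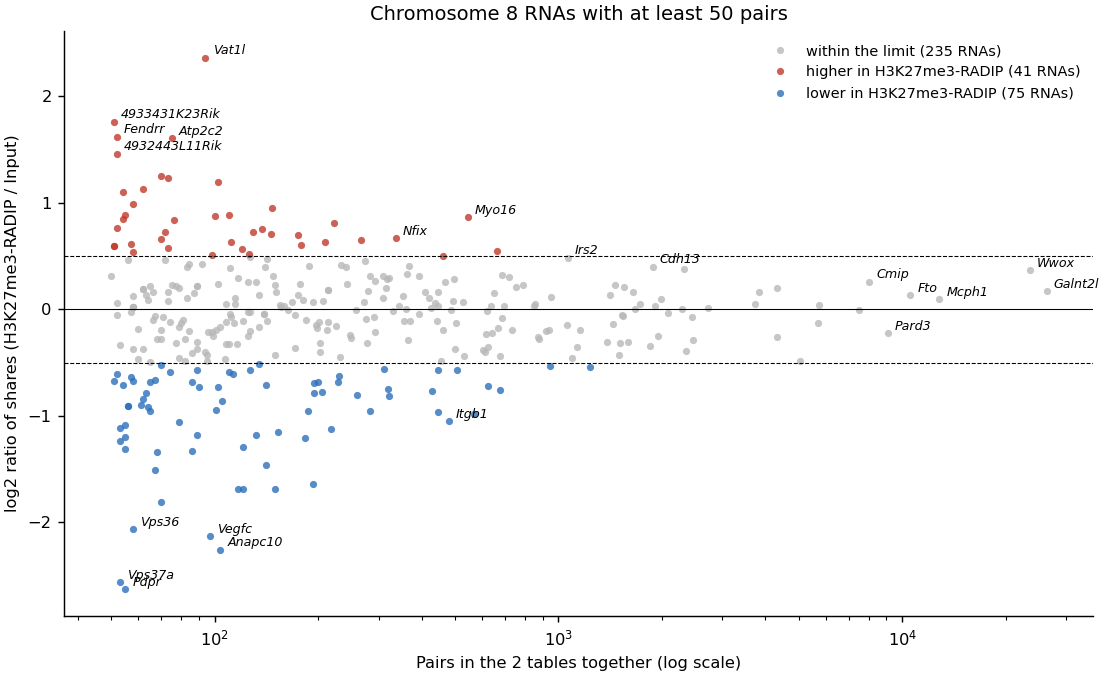
Each point is 1 RNA of chromosome 8 with at least 50 pairs, by its pairs in the 2 tables together (log scale) and the log2 ratio of its share in H3K27me3-RADIP over Input, with the fold limit of 0.5 either way. RNAs with many pairs, such as Galnt2l and Wwox, lie within the limit, and the called ones are mostly those with few pairs.

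Far contacts, over 1 Mb, were given by 32 RNAs in Input (12074 pairs) and 43 in H3K27me3-RADIP (21465 pairs). The 5 RNAs with the most gave 83.1% and 81.2% of them. Wwox alone gave 38.4% and 38.03%, with 4632 and 8163 far pairs, which were 50.5% (49.4 to 51.5) of its own pairs in Input and 56.9% (56.1 to 57.7) in H3K27me3-RADIP. The difference was uneven along the chromosome. In 5-Mb blocks it was smallest where its gene begins, with 1597 and 2073 far pairs at 110 to 115 Mb (log2 0.10), followed by 127 and 200 at 95 to 100 Mb (log2 0.38) and 2048 and 3320 at 115 to 120 Mb (log2 0.42). At 120 to 125 Mb Wwox RNA had 39 and 281 (log2 2.57, 2.09 to 3.06), and at 125 to 130 Mb 120 and 474 (log2 1.71). In the 1-Mb window from 121 Mb, which holds the Fox cluster, it had 10 and 80. Toward the centromere the share was also higher at 105 to 110 Mb (212 and 684, log2 1.41) and at 90 to 95 Mb (164 and 539, log2 1.44, 1.19 to 1.69). In the windows with the Irx gene starts, Wwox RNA had 9 and 60 from 91 Mb and 0 and 126 from 92 Mb. Its pairs over 10 Mb numbered 720 and 1789. Galnt2l had 1735 and 2667 far pairs. Of these 1425 and 1949 lay at 120 to 125 Mb, a block that holds most of its own gene model.

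Mcph1 had 1666 and 3241 far pairs, 29.8% and 44.9% of its own. In the block of its gene, at 15 to 20 Mb, these numbered 788 and 1178 (log2 0.30), at 10 to 15 Mb 742 and 1568 (log2 0.80), and on the other side, at 20 to 25 Mb, 27 and 189 (log2 2.53, 1.95 to 3.11). At 25 to 30 Mb there were 10 and 109 (log2 3.17). Rbpms, with a smaller share of all pairs in H3K27me3-RADIP (log2 -0.13), had more far ones. They made up 7.95% (6.99 to 9.03) of its Input pairs, 215 in all, and 22.9% (21.4 to 24.4) of its H3K27me3-RADIP pairs, 685 in all, and the 1-Mb windows it reached were 6 and 21. From 10 to 15 Mb it had no listed pair in Input and 92 in H3K27me3-RADIP.

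Other RNAs among the 10 with the most far pairs in a table also had a larger far share of their own pairs in H3K27me3-RADIP. Some long genes, such as Dlgap2 and Galntl6, had no far pair listed in either. Cmip, an adaptor of T cell signalling, had 482 and 1213 far pairs (14.7% and 25.6% of its own), of which 334 and 692 were at 115 to 120 Mb (log2 0.77) and 106 and 317 at 120 to 125 Mb (log2 1.30). Ankrd11, a chromatin regulator gene, had 217 and 597 (6.40% and 14.6%), with 208 and 552 at 120 to 125 Mb. The share of Ankrd11 RNA in all pairs was nearly level (2.89% and 2.88%). Fto had 1396 and 2138 far pairs, with log2 0.67 at 85 to 90 Mb against 0.14 at 90 to 95 Mb, the block of its gene. Pard3 had 609 and 875, and its furthest pair was 16.1 Mb away in Input and 39.6 Mb in H3K27me3-RADIP. Gab1, a docking protein of receptor kinases, was an exception with 108 and 95, 8.86% (7.39 to 10.6) and 8.43% (6.95 to 10.2) of its own pairs.

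**Figure D3:**
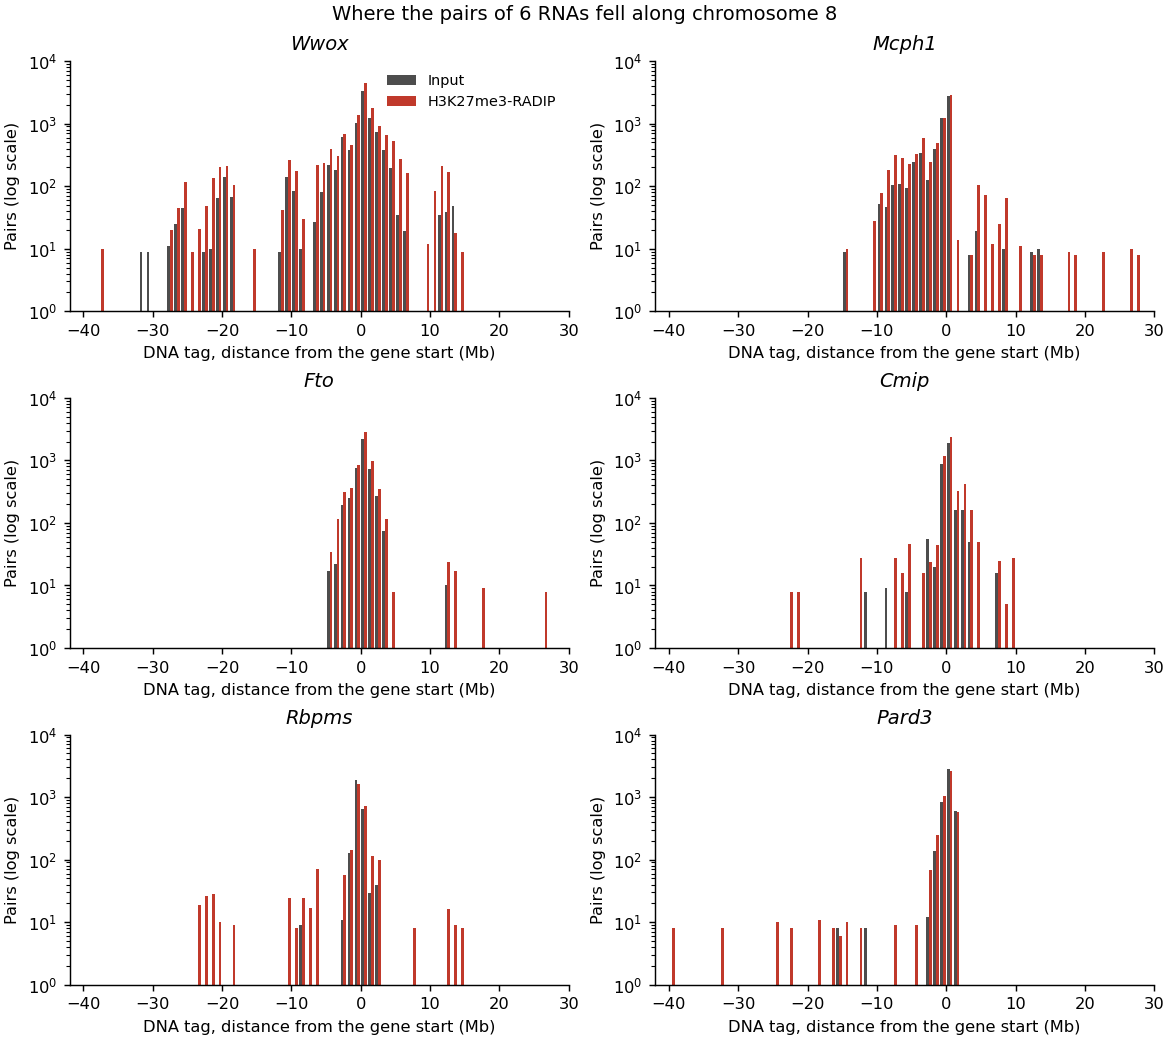
Pairs of 6 RNAs (Wwox, Mcph1, Fto, Cmip, Rbpms and Pard3) on a log scale, by distance of the DNA tag from the gene start in Mb (x axis, negative toward the centromere), in Input and H3K27me3-RADIP. For Wwox, Mcph1 and Rbpms many H3K27me3-RADIP bars far from 0 stand in places where Input has fewer pairs or no bar.

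DNA near gene starts was compared by the 25-kb bin of the start and 1 bin each side, with pairs of all RNAs. Over 861 coding genes with at least 50 pairs, the median log2 ratio was -0.015, with 150 higher (17.4%) and 156 lower (18.1%), beside 24.9% and 21.3% over all chromosomes. Among 31 developmental transcription factor and signalling genes, all with at least 50 pairs, 22 were above 0, 13 (41.9%) were called higher and 2 (6.45%) lower, and the median was 0.41. Their 89 bins together held 3457 Input and 5408 H3K27me3-RADIP pairs, 2.95% and 3.81% of chromosome 8 pairs (log2 0.37, 0.31 to 0.43). Among 26 genes of chromatin regulation and replication, 4 were higher and 9 lower, with a median of -0.39 and 5109 and 5367 pairs (log2 -0.21, -0.26 to -0.15). Among the 18 of 28 adhesion, synapse and guidance genes with at least 50 pairs, 5 were higher and 5 lower, with a median of -0.020. With pairs over 100 kb alone all coding gene starts together had log2 0.21 (-0.031 with all pairs), beside which the developmental list had 0.57 and the chromatin list 0.058.

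The highest ratio on the developmental list was at Hand2, a regulator of heart and limb formation whose promoter is printed above, with 12 Input and 60 H3K27me3-RADIP pairs (log2 2.05, 1.15 to 2.94). At the Fox cluster Foxf1 had 227 and 610 (log2 1.15, 0.93 to 1.37), Foxc2 210 and 572 (log2 1.17) and Foxl1 171 and 370 (log2 0.84). These forkhead genes act in mesoderm and gut mesenchyme, and their start neighbourhoods share bins. In the Iroquois cluster Irx6 had 64 and 143 and Irx3 135 and 267, both called, whereas Irx5, with 121 and 183 (log2 0.32), was not. Sox1, of neural progenitors, had 95 and 191, Klf1, of red cell precursors, 70 and 141, Irf8, of myeloid cells, 151 and 281, and Zfpm1, a cofactor of GATA factors, 361 and 648. Each of these 4 was called higher. Most pairs at several of the called starts came from 2 RNAs. Galnt2l, whose model spans the Fox cluster, Irf8 and Zfpm1, gave 153 and 338 at Foxf1, 142 and 201 at Irf8 and 249 and 443 at Zfpm1. Fto gave 135 and 241 at Irx3 and 64 and 102 at Irx6. The ratios at these starts are therefore not independent of each other.

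The Wnt antagonist Nkd1 (55 and 121), the intestinal homeobox gene Isx (49 and 86) and Zfhx3 (39 and 99, at an annotated start far from the RefSeq one) complete the 13. Called lower were Vegfc, with 45 and 13 (log2 -2.07, -2.96 to -1.18), and Dkk4, another Wnt antagonist, with 157 and 100. Near 0 were Sfrp1 (116 and 139), Fgfr1 (116 and 132) and Pou4f2 (136 and 161). The RNAs of these genes were counted separately. Of 12 with at least 50 pairs 1 was higher (Nfix, 115 and 221) and 2 lower (Vegfc and Hhip), beside 11.7% and 21.4% of all chromosome 8 RNAs, and 19 of the 31 were listed at all.

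On the chromatin list the origin recognition gene Orc6 had the lowest ratio, with 123 Input and 42 H3K27me3-RADIP pairs (log2 -1.83, -2.33 to -1.32). Its RNA had 24 Input pairs and was not listed in H3K27me3-RADIP. Lower too were the acetyltransferase gene Kat6a (126 and 72), Smarca5 (225 and 154), Prmt7 (150 and 109) and Ankrd11 (491 and 378). The 4 higher were Cbfb (47 and 113), the corepressor genes Cbfa2t3 (378 and 720) and Gse1 (224 and 384), and E2f4, a repressor of the cell cycle (103 and 181). Thus the list held genes at both ends. On the adhesion list Itgb1 (199 and 101, log2 -1.25) and Tenm3 (78 and 45) were lower, and the paired genes of basement membrane collagen Col4a1 and Col4a2, whose starts share their bins (99 and 235, log2 0.97), and Cdh13 (84 and 171) were higher.

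**Figure D4:**
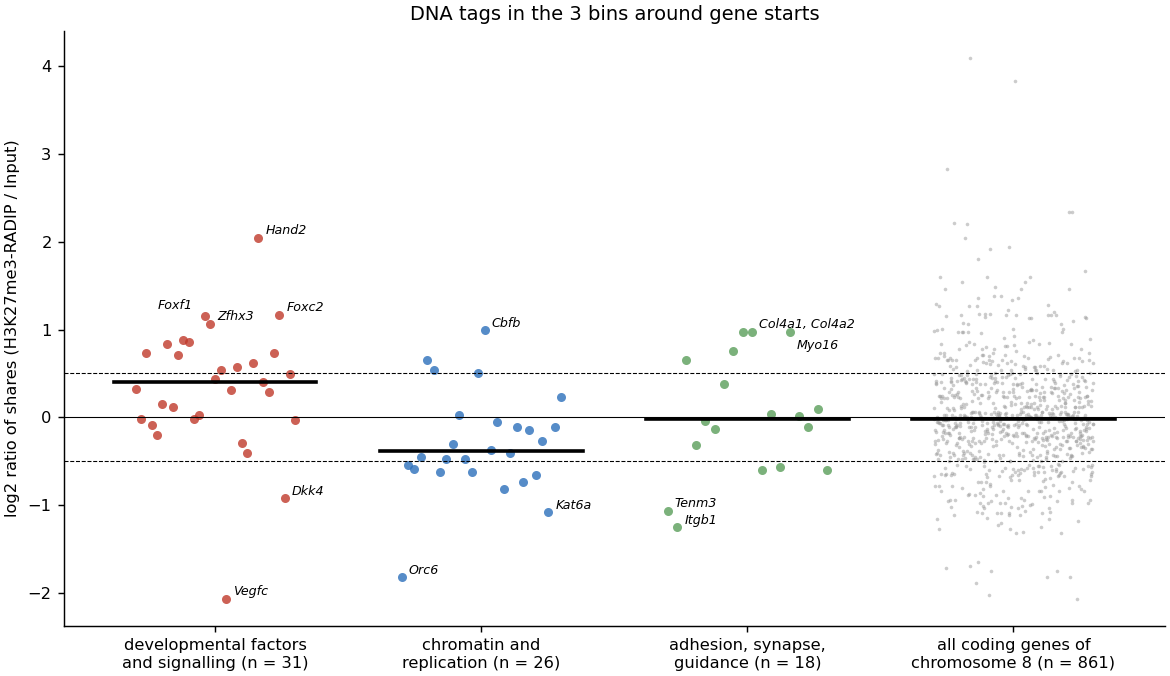
Log2 ratio of the share of pairs around the start (25-kb bin and 1 bin each side) for the genes of the 3 lists and for all coding genes of chromosome 8 with at least 50 pairs, with the fold limit of 0.5 either way. The developmental genes centre at 0.41, the chromatin and replication genes at -0.39 and all coding genes at -0.015, and the groups overlap.

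The single bin with the most different RNAs in H3K27me3-RADIP held the start of Foxf1 (chr8:121075001-121100000) and, within it, the Fendrr promoter printed above. Input listed 3 RNAs and 90 pairs there, H3K27me3-RADIP 10 RNAs and 282 pairs. Listed in both were Galnt2l (69 and 143), Mthfsd (12 and 26) and Ankrd11 (9 and 10). The 7 in H3K27me3-RADIP alone were Slc7a5 (31), an amino acid transporter gene at a median of 813 kb, Zcchc14 (21, at 560 kb), Fendrr itself (16), Cmip (10, at 3771 kb), Wwox (9, at 6290 kb), Klhdc4 (8) and Mbtps1 (8). The last 3 were near the smallest number a combination could have. With q at most 0.01 the bin had 2 RNAs in Input and 7 in H3K27me3-RADIP. Over all bins with pairs the median was 1 RNA in Input and 2 in H3K27me3-RADIP, and bins with at least 7 RNAs numbered 1 and 27. The 1 in Input was the Lamp1 bin (chr8:13150001-13175000), with 7 RNAs against 6 in H3K27me3-RADIP.

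**Figure D5:**
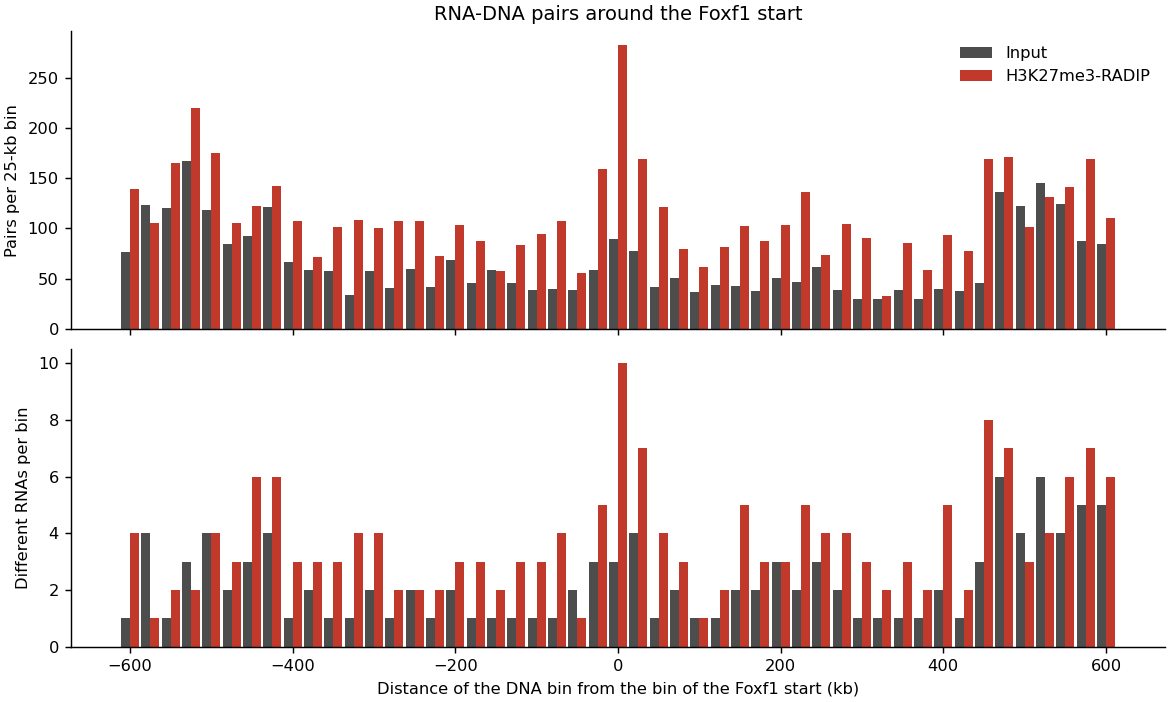
Pairs (all RNAs) and number of different RNAs in each 25-kb bin within 600 kb of the Foxf1 start bin, by distance in kb, in Input and H3K27me3-RADIP. The start bin stands highest in H3K27me3-RADIP, with 282 pairs and 10 RNAs, where Input has 90 pairs and 3 RNAs.

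DNA bins with no RNA tag of any listed pair numbered 996 on chromosome 8. They took 17072 Input pairs, 14.5% (14.3 to 14.8), and 23484 H3K27me3-RADIP pairs, 16.5% (16.3 to 16.7). Pairs repeated at the same RNA and DNA position made up 7.06% of chromosome 8 pairs in Input and 9.64% in H3K27me3-RADIP, and with each position counted once 7 windows were called higher and 14 lower.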

How the data were processed

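RADIP and Input pairs of PGK12.1 mESCs were measured in 8 libraries per condition. Per the labels' processing notes of the submitters, reads were handled with CASAVA 1.8.2, STAR 2.5.0a and BWA 0.7.15-r1140 on mm10. The authors merged the libraries, tested pairs with CHiCANE and deposited the significant ones with a p-value and a q-value column, in 2 tables of 1 line per pair. Lines were used as deposited, with no further limit on q. From them, shares with 95% Wilson intervals and log2 ratios of shares with 95% counting intervals were computed (Python 3.11.15, pandas 2.3.3, numpy 2.4.6, scipy 1.17.1). Intervals cover counting error only. Shares for windows, RNAs and gene starts are of chromosome 8 cis pairs. Depth was 117342 Input and 142093 H3K27me3-RADIP pairs on chromosome 8. In ratios a count of 0 was set to 3 pairs. Since no listed combination had fewer than 7, such a ratio is no bound, and the text gives none. Gene positions came from GENCODE M21, promoters from RefSeq. Steps were tested on simulated data.

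The rule for named RNAs took the 10 with the most pairs and the most pairs over 1 Mb in each table, the 8 highest and 8 lowest ratios with at least 50 pairs, the 5 largest in 1 table only, 10 lncRNAs, and listed genes. Windows named were the 8 with the most pairs and those past the limit. The chromosome was also cut into 5 equal parts, runs were at least 4 successive windows with 50 pairs or more on 1 side of 0, windows with fewer being passed over, and far pairs of an RNA were grouped in 5-Mb blocks with at least 50 of them, rules set with the values known. Any other name was picked once its values were known. Some genes and windows that these rules name are not reported here. The members, lists and limits were chosen with earlier results of these data known. Alternatives were the q-value limit, repeated positions, the leading RNAs, shared combinations, window placing and size, the fold and pair limits, and the weight of each RNA.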

Additional observations from a re-analysis of the deposited data

How the results depend on the processing

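No paired analysis was possible because the replicates of each condition were merged into 1 table. With q at most 0.01, the difference over 1 Mb was 4.54 percentage points. Without the RNA with the most pairs it was 5.07, and the difference in the chromosome's share of cis pairs was 0.865 (1.06 as reported). Leaving out the 5 leading RNAs gave differences of 6.36 over 100 kb, 2.16 over 1 Mb and 0.438 for that share. Among combinations of RNA and bin in both tables they were 3.78, 0.916 and 0.906, windows numbered 0 higher and 7 lower, RNAs 20 and 43, and the windows from 28, 35 and 50 Mb changed sign (log2 -0.018, -0.028 and 0.22). With each RNA weighted equally the differences were 2.82 over 100 kb and 0.250 over 1 Mb.

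Windows by RNA tag gave 3 higher and 14 lower, shares of all pairs 17 higher and 12 lower, and 500-kb windows 21 higher and 24 lower. A fold limit of 1 left 1 window higher and 4 lower, and 10 RNAs higher and 27 lower. At least 200 pairs left 7 and 20 RNAs. All alternatives for gene starts and for the Foxf1 bin were chosen after seeing the data. With the start bin alone, the developmental list had log2 0.60, the chromatin list -0.30 and the adhesion list 0.084. With pairs over 100 kb alone they had 0.57, 0.058 and 0.025, beside 0.21 for all coding gene starts. With combinations in both tables the developmental list had 0.29. The cause of these shifts was not tested, save that a higher limit leaves fewer to count. Of 151 values of called windows under alternatives, 148 kept their sign. Pairs per combination (a minimum of 7) limit what sparse RNAs and bins can show.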

Other observations

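Contacts that cross between chromosome 8 and others were few and belong to none of the comparisons above. RNAs of chromosome 8 genes had no listed pair with another chromosome in Input and 90 in H3K27me3-RADIP. These came from 3 RNAs, the small nucleolar RNA Snord13 (68), Mcph1 (12) and Rbpms (10). In the other direction, chromosome 8 DNA received 755 pairs from RNAs of other chromosomes in Input and 979 in H3K27me3-RADIP. Malat1, the abundant nuclear lncRNA, gave 262 and 496 of them, Gm22973 457 and 396, Snord118 9 and 50, and Rmrp, the RNA of RNase MRP, 27 and 28.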
